A study of Homo sapiens with 42 samples.

Results

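The nuclear-encoded genes of oxidative phosphorylation were followed across polyadenylated RNA from HAP1, a human cell line of chronic myeloid leukaemia origin that is close to haploid. Members were chosen by symbol alone: NDUFA, NDUFB, NDUFC, NDUFS, NDUFV and NDUFAB followed by a number, SDHA to SDHD, UQCR genes, the COX4I1 to COX8A structural subunits, and every symbol starting with ATP5. The rule found 80 of 26228 genes. Of these, 37 belong to complex I, 4 to complex II, 8 to complex III, 11 to complex IV (NDUFA4 is counted there, as a subunit of that complex) and 15 to complex V. The remaining 5 symbols starting with ATP5 are the pseudogene ATP5EP2, the retrocopy ATP5L2, the read-through ATP5J2-PTCD1, and ATP5S and ATP5SL, which are not structural subunits of the synthase. In all, 78 members were tested, having at least 1 FPKM in at least 3 libraries. ATP5L2 and ATP5J2-PTCD1 did not pass that filter. FPKM is fragments scaled for transcript length and library size, so levels can be set side by side between genes.

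Both HAP1 WT and HAP1 carrying C312S in CDK7 were treated for 24 h. The kinase CDK7 activates other CDKs and is part of transcription factor TFIIH. The substitution removes the cysteine that covalent CDK7 inhibitors bind. Each line had 7 groups of 3 libraries: DMSO; YKL at 500 nM; YKL at 2 µM; THZ531, which covalently inhibits CDK12 and CDK13; THZ1, which does so for CDK7 and also reaches CDK12 and CDK13; and combinations at 500 nM and 2 µM. The labels of the combinations name no compound, and the column names of the table hold the codes of both THZ531 and YKL. YKL is taken here as the covalent CDK7 inhibitor of the series title. Doses of THZ531 and THZ1 are not in the labels, which also leave unsaid whether the C312S line is 1 clone and whether libraries of 1 group are separate cultures. P-values set a difference between group means against the spread of libraries within groups, pooled over all 14 groups. That spread may be only technical.

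The respiratory chain of the inner mitochondrial membrane passes electrons from NADH (complex I) and succinate (complex II) through complex III to oxygen at complex IV, and complexes I, III and IV pump protons whose return flow drives ATP synthesis at complex V. Most subunits are encoded in the nucleus and imported, while a small core is encoded in mitochondrial DNA. Transcription factors NRF1, GABPA (an ETS family factor) and YY1 are textbook regulators of the nuclear subunit genes. The mitochondrially encoded subunits were not analysed here.

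Promoter sequences are shown for the genes on which the results below turn, with letters of 2 textbook motifs in capitals. They come from RefSeq on GRCh38.p14 and cover the 150 bases before the start of transcription, written 5′ to 3′ on the strand of the gene. ATP5G1 (chr17:48892637-48892786, plus strand) and ATP5G2 (chr12:53676084-53676233, minus strand) encode the same c-ring protein of ATP synthase and had unlike values across treatments:
ATP5G1: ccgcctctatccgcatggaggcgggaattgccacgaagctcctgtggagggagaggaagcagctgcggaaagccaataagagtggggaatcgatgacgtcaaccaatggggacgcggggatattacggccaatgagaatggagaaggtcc
ATP5G2: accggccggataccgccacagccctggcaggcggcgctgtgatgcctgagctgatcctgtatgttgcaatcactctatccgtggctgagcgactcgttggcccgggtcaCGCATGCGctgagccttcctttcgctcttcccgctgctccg
NDUFS7 (chr19:1383757-1383906, plus strand) and NDUFA12 (chr12:95003698-95003847, minus strand) had the largest fall and the largest rise in complex I with the combination at 2 µM:
NDUFS7: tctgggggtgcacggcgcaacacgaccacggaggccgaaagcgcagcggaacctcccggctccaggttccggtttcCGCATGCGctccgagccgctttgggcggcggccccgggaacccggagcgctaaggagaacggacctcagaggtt
NDUFA12: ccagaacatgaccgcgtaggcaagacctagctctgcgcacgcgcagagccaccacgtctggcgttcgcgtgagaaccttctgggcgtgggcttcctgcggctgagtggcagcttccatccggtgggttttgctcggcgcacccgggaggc
SDHB (chr1:17054033-17054182, minus strand) and COX5B (chr2:97645912-97646061, plus strand) are shown as members with the ETS letters:
SDHB: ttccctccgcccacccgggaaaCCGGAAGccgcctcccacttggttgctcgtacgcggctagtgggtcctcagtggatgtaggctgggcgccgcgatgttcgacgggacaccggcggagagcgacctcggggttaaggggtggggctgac
COX5B: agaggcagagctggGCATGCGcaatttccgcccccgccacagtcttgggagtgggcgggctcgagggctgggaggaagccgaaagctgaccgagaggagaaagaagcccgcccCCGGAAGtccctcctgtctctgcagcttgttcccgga
The NRF1 letters GCATGCG were found 41 to 34 bases before the start in ATP5G2 and 74 to 67 bases before it in NDUFS7, in both cases in overlapping copies on both strands. In COX5B they lay 136 to 130 bases before the start, and the ETS letters CCGGAAG 37 to 31 bases before it. In SDHB the ETS letters lay 128 to 122 bases before the start. ATP5G1 and NDUFA12 held neither in the window shown. Each motif was searched on both strands over 250 bases before the start, and 64 of 80 members had an entry. Some had several starts, and the NRF1 letters were in 18.4% of their 76 promoters against 3.39% of all 35116 promoters. The ETS letters were in 23.7% against 8.52%, and the YY1 letters AAGATGG in 7.89% against 3.70%. ATP5G2 had 3 such promoters, and not all of them held the NRF1 letters. SDHB held the NRF1 letters too, further from its start than the window shown. A match describes letters and no binding was measured.

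At baseline, these were abundant transcripts. The members took 3.47% ± 0.0863 (SD, n = 3) of total FPKM in WT DMSO. Among WT DMSO means, complex IV genes had the highest median level, 484 FPKM, from 107 for COX6C to 1048 for COX7B. Complex V genes followed with a median of 324 FPKM, from 125 for ATP5G3 to 921 for ATP5B, the catalytic beta subunit. The median was 130.5 FPKM in complex III (UQCRB 33.4 to UQCRH 624), 125 FPKM in complex I (NDUFA5 11.1 to NDUFS5 484) and 74.8 FPKM in complex II (SDHC 28.8 to SDHB 187). Genes of 1 complex thus differed far more among themselves than libraries of a group did.

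Total FPKM per library ran from 447938 to 913367. C312S DMSO and C312S THZ1 libraries stood apart at 780085 to 913367, and the other 36 libraries were at 447938 to 637758. FPKM is relative to the library, so results were also computed with 23 ERCC spike-in RNAs as the reference and with libraries set to equal total FPKM. On the deposited scale the median of all tested genes stayed within 0.04 of 0 (log2) in every comparison. With spike-in scaling that median moved to -1.99 for THZ1, -0.93 for the combination at 2 µM and -0.58 for YKL 500 nM in WT, and to -1.12 for C312S against WT under DMSO. Fewer cells and less RNA per cell cannot be told apart in such bulk samples, and read depth is unknown. Blood cell markers were under 1 FPKM in all libraries for 12 of 14 genes, with HBG1 and CD3E at 0. Epithelial markers were so for 6 of 8, with KRT14 at 0, and fibroblast markers for 6 of 9, with DCN, LUM and FAP at 0.

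**Figure D1:**
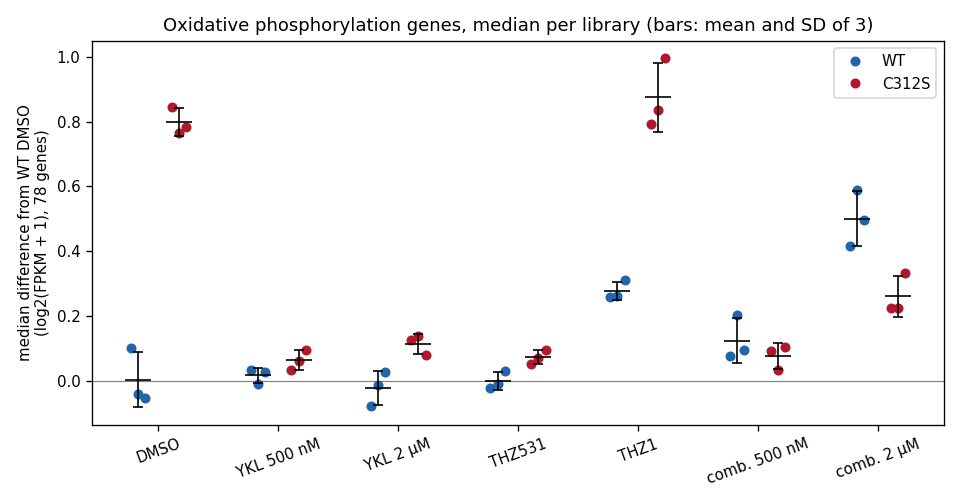
Median difference of the 78 tested members from the WT DMSO mean (log2(FPKM + 1), deposited scale) in each of 42 libraries by treatment and line, with mean and SD of 3. C312S DMSO (0.80 ± 0.043) and C312S THZ1 (0.88 ± 0.11) lie above every other group. With spike-in scaling C312S DMSO lies below WT DMSO instead, with a median difference of -0.63.

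YKL in WT cells moved single members in both directions and lowered ATP5G2 most. Differences are log2 changes of FPKM + 1, tested with limma over all 12816 tested genes and called at a Benjamini-Hochberg adjusted p under 0.05. With YKL 500 nM, 16 of 78 members rose (20.5%, against 31.3% of all tested genes) and 23 fell (29.5%, against 31.7%), with a median of 0.04. With YKL 2 µM, 12 rose (15.4%, against 31.8%) and 29 fell (37.2%, against 33.5%), with a median of -0.03. These shares of calls were near or below the background. The balance depended on scaling: spike-in scaling gave 0 risen and 74 fallen at 500 nM and 0 and 29 at 2 µM, equal total FPKM gave 51 and 7, and 50 and 5, and median ratio scaling gave 22 and 17, and 18 and 27. Fibroblast markers summed to 17.8 to 18.6 FPKM at 500 nM and 16.9 to 17.8 at 2 µM, against 24.6 to 25.01 in WT DMSO, and their part was not tested.

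ATP5G2 encodes 1 of 3 precursors of the identical c-ring subunit, through which protons turn the synthase rotor. Its FPKM was 308, 286 and 282 in WT DMSO, 174, 158 and 161 with YKL 500 nM, and 134, 160 and 144 with YKL 2 µM. The groups did not overlap with DMSO at either dose. It fell by 0.82 (SE 0.055, limma adjusted p = 3.31e-14) and by 1.00 (SE 0.055, adjusted p = 2.14e-16). ATP5G1 had 350, 327 and 309 FPKM in DMSO against 256, 290 and 279 with YKL 2 µM. It fell by 0.25 (SE 0.059, adjusted p = 0.000368), although with equal total FPKM its value was 0.04. ATP5G3 did not pass the test at 500 nM (-0.05, SE 0.041, adjusted p = 0.333), and at 2 µM it fell by 0.11 (adjusted p = 0.0242), a call lost without WT DMSO replicate 1 (-0.06) or YKL 2 µM replicate 1 (-0.07) and turned to 0.18 by equal total FPKM. It was also lost with spike-in scaling (-0.22) and median ratio scaling (-0.070). The differences between these genes were not themselves tested.

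**Figure D2:**
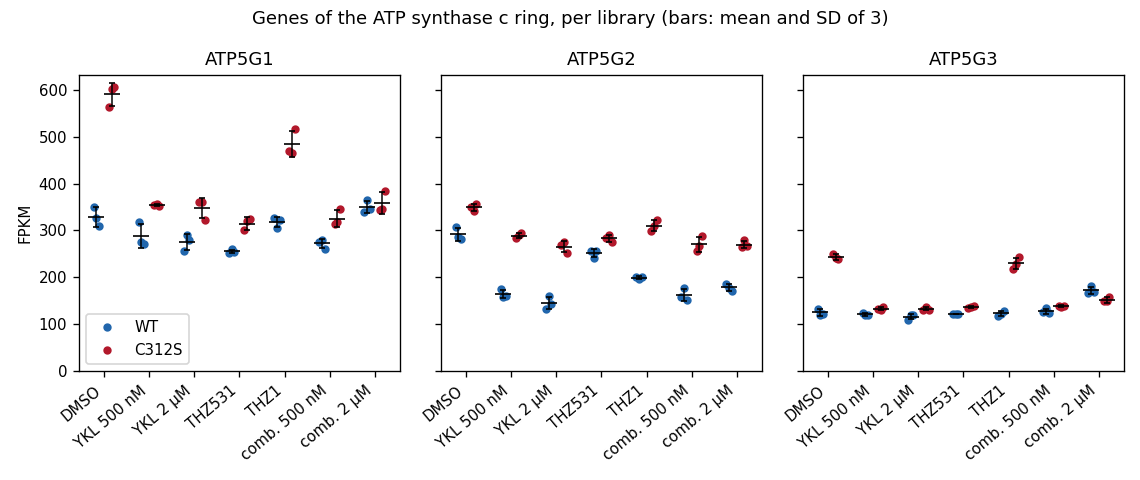
FPKM of the c-ring genes ATP5G1, ATP5G2 and ATP5G3 in each library by treatment and line, with mean and SD of 3. In WT, ATP5G2 lies between 134 and 202 with YKL, THZ1 and both combinations against 282 to 308 with DMSO, and with the combination at 2 µM ATP5G1 lies within or above its DMSO range and ATP5G3 above it.

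Other members named by complex showed smaller shifts with YKL. NDUFS7, a core subunit that carries the last iron-sulfur cluster before ubiquinone, had 87.0, 98.1 and 81.5 FPKM in WT DMSO and 66.9, 57.9 and 60.2 with YKL 500 nM, without overlap, and fell by 0.52 at both doses (SE 0.11), the call at 2 µM being lost with equal total FPKM (-0.23). NDUFA12, an accessory subunit of the peripheral arm, had 207, 186 and 186 FPKM in DMSO and 247, 270 and 255 with YKL 500 nM. It rose by 0.42 (SE 0.075, adjusted p = 1.79e-05). SDHA, the flavoprotein that oxidises succinate, had 65.6, 64.5 and 62.9 FPKM in DMSO and 90.3, 84.5 and 82.2 with YKL 500 nM. It rose by 0.41 (SE 0.051, adjusted p = 3.49e-08), while the membrane anchor SDHD fell by 0.47 (SE 0.084) and the Rieske protein UQCRFS1 rose by 0.26. UQCRB, a small subunit of complex III, had 37.4, 30.8 and 31.8 FPKM in DMSO and 22.4, 22.2 and 21.9 with YKL 500 nM, and fell by 0.56 at both doses. The rises of NDUFA12, SDHA and UQCRFS1 turned to falls with spike-in scaling (-0.24, -0.24 and -0.40).

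Of the catalytic subunits, ATP5B rose by 0.28 (SE 0.039) with YKL 500 nM, and the alpha subunit ATP5A1 did not pass the test (-0.08, adjusted p = 0.113). With spike-in scaling ATP5B had -0.38. In complex IV, COX7A2 rose by 0.31 and COX7C fell by 0.27 at 500 nM, the latter lost with equal total FPKM (-0.033). The peripheral stalk gene ATP5H rose by 0.39 at 500 nM and by 0.26 at 2 µM, the second call being lost without WT DMSO replicate 2 (0.23), WT DMSO replicate 3 (0.21) or YKL 2 µM replicate 3 (0.23). At 2 µM the complex I accessory gene NDUFA3 rose by 0.36 and the membrane anchor SDHC fell by 0.22, where equal total FPKM gave 0.06 for SDHC. With spike-in scaling NDUFA3 (0.25) and ATP5H (0.16) at 2 µM were not called. Spike-in scaling gave -0.35 for COX7A2 and -0.26 for ATP5H at 500 nM.

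The doses of YKL gave near values in WT. Between 2 µM and 500 nM, 1 of 78 members was higher (1.28%, against 2.14%) and 3 lower (3.85%, against 4.04%), with a median of -0.06, and spike-in scaling gave 78 higher and 0 lower. The higher member was SDHD (0.28, SE 0.084, adjusted p = 0.0382), with 57.4, 60.4 and 66.3 FPKM at 500 nM and 71.1, 76.2 and 77.1 at 2 µM. The count fell to 0 without YKL 500 nM replicate 1 or 2 or YKL 2 µM replicate 1, to 1 without YKL 2 µM replicate 3, and to 2 without YKL 500 nM replicate 3 or YKL 2 µM replicate 2.

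THZ531 lowered a subset of complex I accessory genes in WT. Of the members, 11 rose (14.1%, against 24% of all tested genes) and 22 fell (28.2%, against 22.9%), with a median of -0.01. Equal total FPKM gave 35 and 20, GC and length correction 18 and 21, a fit of only these groups 5 and 22, and spike-in scaling 5 and 10. NDUFB1, a small accessory subunit of the membrane arm, had 78.8, 91.1 and 96.4 FPKM against 182, 147 and 149 in DMSO. All libraries lay below DMSO, and it fell by 0.83 (SE 0.095, limma adjusted p = 2.61e-08). NDUFA3 had 135, 128 and 118 FPKM against 212, 181 and 195. COX5B of complex IV had 272, 273 and 272 FPKM against 393, 364 and 363 and fell by 0.45 (SE 0.067), and ATP5G1 fell by 0.36. UQCR11 of complex III fell by 0.31. Rises were small: NDUFA12 rose by 0.38, SDHB by 0.21, UQCRC2 by 0.21 and COX5A by 0.15, the last lost without any of WT THZ531 replicates 2 and 3 and WT DMSO replicates 2 and 3 (0.13 to 0.14). With spike-in scaling UQCR11 (-0.24) and COX5A (0.22) were not called. Across the 78 members, changes went with the GC content of the transcript (Spearman rho -0.41), as over all 12552 genes with a GC value (rho -0.46).

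THZ1 in WT raised most members on the deposited scale and none with spike-in scaling. Of 78, 52 rose (66.7%, against 34% of all tested genes) and 10 fell (12.8%, against 34.8%), with a median of 0.30, whereas spike-in scaling gave 0 risen, 77 fallen and a median of -2.09, and equal total FPKM 40 and 17. By complex, 22 of 37 rose and 7 fell in complex I, 3 and 1 of 4 in complex II, 7 and 0 of 8 in complex III, 8 and 0 of 11 in complex IV, and 11 and 1 of 15 in complex V. Spike-in levels relative to genes were also highest in these libraries, at a mean log2 of 1.82 against -0.62 in WT DMSO. Spike-in scaling divides by the spike-in level, so its results hold this difference by construction. What raised the spike-in levels was not tested. Fibroblast markers summed to 19.4 to 21.2 FPKM here and 24.6 to 25.01 in WT DMSO, and blood cell markers to 2.87 to 3.57 here and 1.54 to 1.86 in WT DMSO. The part of either was not tested.

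COX6C, a small subunit of complex IV, had 117, 102 and 101 FPKM in WT DMSO and 211, 205 and 224 with THZ1. The groups were far apart, and it rose by 1.00 (SE 0.055, limma adjusted p = 2.77e-16). NDUFA12 had 345, 373 and 364 FPKM with THZ1 and rose by 0.90 (SE 0.075). ATP5B had 967, 914 and 882 FPKM in DMSO and 1695, 1691 and 1727 with THZ1, and rose by 0.89 (SE 0.039, adjusted p = 7.80e-19), whereas its partner ATP5A1 rose by 0.43 (SE 0.044). NDUFV1, the NADH-binding flavoprotein, had 152, 151 and 144 FPKM in DMSO and 244, 224 and 223 with THZ1, and rose by 0.62 (SE 0.070). SDHA rose by 0.36 and the hinge protein UQCRH of complex III by 0.43. These risen genes had -1.41 (COX6C), -1.52 (NDUFA12), -1.54 (ATP5B), -2.00 (ATP5A1), -1.79 (NDUFV1), -2.02 (SDHA) and -1.99 (UQCRH) with spike-in scaling.

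Falls with THZ1 were fewer. NDUFV3, an accessory subunit of the NADH-binding module, had 38.1, 33.9 and 33.0 FPKM in DMSO and 19.9, 20.4 and 22.6 with THZ1, without overlap, and fell by 0.71 (SE 0.062, adjusted p = 1.05e-11). ATP5G2 had 200, 197 and 202 FPKM and fell by 0.54 (SE 0.055), and SDHD fell by 0.31. The other c-ring genes did not pass the test, ATP5G1 at -0.04 and ATP5G3 at -0.02. The falls kept their direction with spike-in scaling, but nearly all members fell on that scale, so this could not test them.

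**Figure D3:**
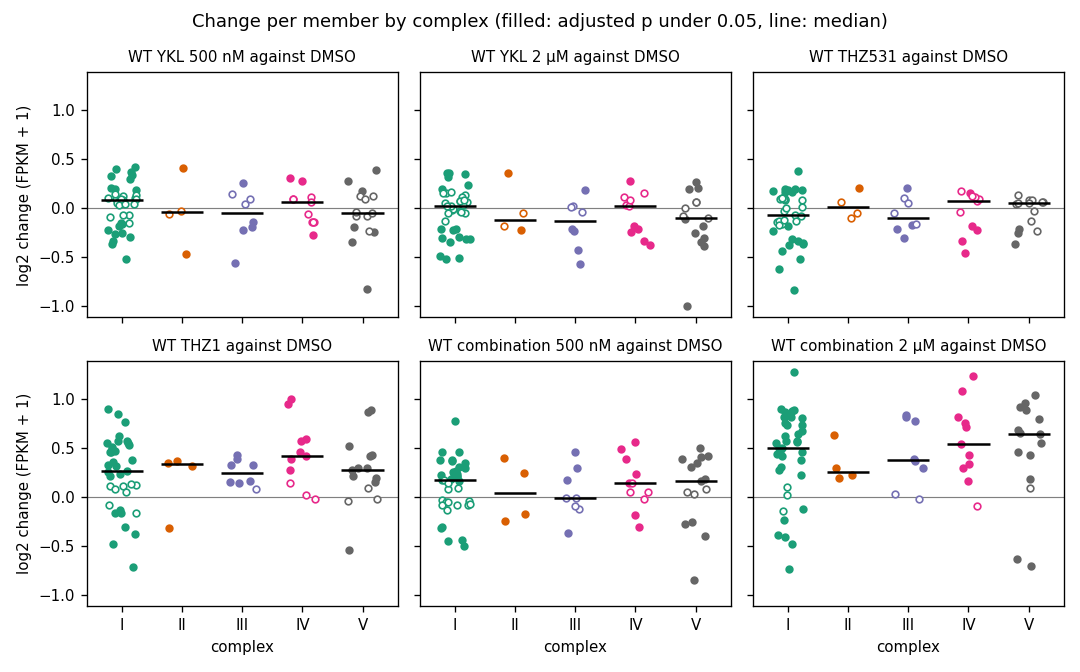
Log2 change (FPKM + 1, deposited scale) of each member against DMSO by complex for the 6 WT treatments, filled where the limma adjusted p is under 0.05, with the median of each complex as a line. Medians of all 5 complexes lie above 0 with THZ1 and the combination at 2 µM, and with spike-in scaling the medians over all members there are -2.09 and -0.60.

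Both combinations in WT had more risen than fallen members on the deposited scale and more fallen than risen ones with spike-in scaling. At 500 nM, 37 of 78 members rose (47.4%, against 34% of all tested genes) and 15 fell (19.2%, against 34.2%), with a median of 0.14, where spike-in scaling gave 1 and 41 and equal total FPKM 51 and 10. At 2 µM, 62 rose (79.5%, against 38.9%) and 9 fell (11.5%, against 38.1%), with a median of 0.50, where spike-in scaling gave 0 and 71 with a median of -0.60, and GC and length correction gave 50 and 16 with a median of 0.23. By complex at 2 µM, 28 of 37 rose and 6 fell in complex I, 4 and 0 of 4 in complex II, 6 and 0 of 8 in complex III, 10 and 0 of 11 in complex IV, and 12 and 2 of 15 in complex V. Members took 4.88% ± 0.0815 (SD, n = 3) of total FPKM. Changes went with GC content across members (rho -0.39) and across all genes (rho -0.46), and GC was not tested as their source. Fibroblast markers summed to 17.5 to 18.6 FPKM at 500 nM and 15.9 to 17.7 at 2 µM, below WT DMSO, and their part was not tested.

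NDUFA12 had 424, 527 and 451 FPKM with the combination at 2 µM, all above its 186 to 207 in DMSO, and rose by 1.27 (SE 0.075, limma adjusted p = 6.85e-16). NDUFA4 had 228, 278 and 256 FPKM against 119, 103 and 101, and rose by 1.23 (SE 0.082). The peripheral stalk gene ATP5H had 550, 660 and 593 FPKM against 330, 279 and 269, and rose by 1.04 (SE 0.091). UQCRH had 1023, 1190 and 1115 FPKM against 700, 573 and 600 and rose by 0.83. SDHB, the iron-sulfur subunit of complex II, rose by 0.63. With spike-in scaling NDUFA12 had 0.15 and NDUFA4 0.11, neither called, and ATP5H, UQCRH and SDHB had -0.08, -0.29 and -0.49.

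Against this rise stood core subunits of complex I and the c ring. NDUFS7 had 57.5, 49.2 and 53.0 FPKM and fell by 0.73 (SE 0.11, adjusted p = 2.38e-07). NDUFV1 fell by 0.23, and had 0.16 after GC and length correction. ATP5G2 had 186, 178 and 171 FPKM and fell by 0.70 (SE 0.055). ATP5G3 had 134, 121 and 122 FPKM in DMSO and 167, 182 and 170 at 2 µM, and rose by 0.46 (SE 0.041), where spike-in scaling gave -0.66. ATP5G1 did not pass the test (0.09, adjusted p = 0.165). At 500 nM the largest changes per complex were NDUFA12 (0.78), NDUFS7 (-0.50), SDHA (0.40), SDHD (-0.24), UQCRFS1 (0.46), UQCRB (-0.36), COX7A2 (0.57), COX7C (-0.30), ATP5H (0.50) and ATP5G2 (-0.84), all called, with SDHD lost without WT DMSO replicate 1 (-0.20) or with equal total FPKM (-0.076). Spike-in scaling ended the calls of SDHA (0.013), UQCRFS1 (0.072), COX7A2 (0.18) and ATP5H (0.11).

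The combination at 2 µM was then set against THZ531 alone, which asks what YKL added. In WT, 64 of 78 members were higher (82.1%, against 38.3%) and 5 lower (6.41%, against 35.3%), with a median of 0.54, where spike-in scaling gave 0 and 72 with a median of -0.64 and GC and length correction 49 and 12. NDUFB1 had 194, 247 and 220 FPKM against 78.8, 91.1 and 96.4 with THZ531 and was 1.30 higher (SE 0.095). NDUFB5, a membrane arm accessory subunit, had 182, 220 and 202 FPKM against 82.8, 82.3 and 88.5 and was 1.24 higher (SE 0.060, limma adjusted p = 6.07e-18). With spike-in scaling NDUFB1 had 0.12 and NDUFB5 0.052, neither called. ATP5H was 1.17 higher, with -0.03 under spike-in scaling. The lower members included NDUFS7 (-0.55), ATP5G2 (-0.49, SE 0.055) and the F1 stalk gene ATP5D (-0.40), and ATP5G3 was higher by 0.49, with -0.69 under spike-in scaling.

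A comparison chosen after its values were seen measured how far each WT combination departed from the sum of the log2 changes of THZ531 and YKL. At 2 µM, 69 members were above the sum (88.5%, against 29.1% of all tested genes) and 1 below (1.28%, against 24.3%), with a median of 0.61, where equal total FPKM gave 41 and 9 and spike-in scaling 0 and 64 with a median of -0.47. In complexes III and IV 8 of 8 and 11 of 11 members were above. NDUFB1 changed by -0.83 with THZ531, 0.16 with YKL 2 µM and 0.47 with the combination, a departure of 1.14 (SE 0.13, adjusted p = 4.48e-08), which was 0.064 and not called with spike-in scaling. SDHA was the member below the sum (-0.20, SE 0.072, adjusted p = 0.0191), a call lost without WT THZ531 replicate 3 (-0.18), combination 2 µM replicate 2 (-0.14) or YKL 2 µM replicate 2 (-0.17). ATP5G2 departed by 0.51 (SE 0.077).
At 500 nM, 11 members were above (14.1%, against 5.05%) and 0 below (0%, against 3.82%; 0 also at an unadjusted limma p under 0.05), with a median of 0.16. That count was 4 to 7 when WT DMSO replicate 1, any THZ531 replicate, combination 500 nM replicate 1 or 2, or YKL 500 nM replicate 2 or 3 was left out, and 3 when only these groups were fitted.

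Under DMSO, the C312S line had higher levels of most members than WT on the deposited scale, and lower ones with spike-in scaling. Of 78, 68 were higher (87.2%, against 41.3% of all tested genes) and 5 lower (6.41%, against 37.9%), with a median of 0.81, where spike-in scaling gave 0 and 75 with a median of -0.63, equal total FPKM 53 and 18, and GC and length correction 57 and 8 with a median of 0.33. Higher members were 31 of 37 in complex I, 3 of 4 in complex II, 8 of 8 in complex III, 11 of 11 in complex IV and 14 of 15 in complex V. COX7B, a small subunit of complex IV, had 2885, 2650 and 2696 FPKM against 1216, 950 and 978 and was 1.40 higher (SE 0.090, limma adjusted p = 5.88e-15). NDUFA4 was 1.24 and NDUFB1 1.16 higher. Spike-in scaling gave -0.05, -0.20 and -0.28 for these genes.

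Flavoproteins went the other way. NDUFV1 had 97.6, 108 and 106 FPKM in C312S and 152, 151 and 144 in WT, without overlap, and was lower by 0.52 in log2 (-0.52, SE 0.070, adjusted p = 6.38e-08). SDHA was lower at -0.23 (SE 0.051). NDUFS7 was lower at -0.38, with 0.19 after GC and length correction, and ATP5D at -0.29, a call lost without WT DMSO replicate 2 (-0.25) or C312S DMSO replicate 1 (-0.16), or after GC and length correction (-0.055). In the c ring, ATP5G3 was 0.95 and ATP5G1 0.84 higher (-0.49 and -0.60 with spike-in scaling), and ATP5G2 0.26 higher (-0.25 with equal total FPKM, -1.18 with spike-in scaling, -0.09 after GC and length correction). Differences between lines went with GC content across members (rho -0.43) and all genes (rho -0.55). Fibroblast markers summed to 24.6 to 25.01 FPKM in WT DMSO and 2.06 to 2.56 in C312S DMSO, and their part, like that of the higher total FPKM, was not tested.

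Within C312S, YKL, THZ531 and the combinations left most members below DMSO on the deposited scale and above it with spike-in scaling. YKL 500 nM gave 6 risen (7.69%, against 36.9%) and 66 fallen members (84.6%, against 39.6%) with a median of -0.78, where spike-in scaling gave 60 and 0. YKL 2 µM gave 3 (3.85%, against 36.6%) and 66 (84.6%, against 39.2%), where spike-in scaling gave 72 and 0. THZ531 gave 6 (7.69%, against 34.6%) and 69 (88.5%, against 39.5%), where spike-in scaling gave 78 and 0. The combination at 500 nM gave 3 (3.85%, against 35%) and 69 (88.5%, against 38.4%), and that at 2 µM 2 (2.56%, against 32.8%) and 66 (84.6%, against 35.9%), where spike-in scaling gave 70 and 0, and 47 and 1. Equal total FPKM left 41 to 51 fallen and 16 to 20 risen in these 5 comparisons, which share their DMSO libraries. The C312S libraries of these 5 treatments lay at 0.03 to 0.33 from WT DMSO in member median, against 0.77 to 0.85 for C312S DMSO, so each of these results rests on the C312S DMSO libraries.

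NDUFB5 shows the pattern, with 262, 236 and 239 FPKM in C312S DMSO, 99.5, 99.3 and 106 with YKL 500 nM and 107, 107 and 116 with the combination at 2 µM, near its 118, 103 and 107 in WT DMSO. Flavoproteins again went the other way: with YKL 500 nM NDUFV1 rose by 0.48 (SE 0.070) and SDHA by 0.29 (SE 0.051). ATP5G2 had 351, 342 and 356 FPKM in C312S DMSO and 269, 276 and 252 with YKL 2 µM, and fell by 0.40 (SE 0.055). At 500 nM it fell by 0.27. Equal total FPKM gave 0.10 and 0.23 for these falls, spike-in scaling 0.88 and 0.89, and GC and length correction 0.04 at 500 nM. Whether YKL acted differently on ATP5G2 in the lines was tested only as its addition to THZ531, below.

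THZ1 in C312S moved single members in both directions, and only their median stayed near the C312S DMSO level. Of 78, 31 rose (39.7%, against 33.9%) and 16 fell (20.5%, against 29.7%), with a median of 0.06, where equal total FPKM gave 23 and 31 and spike-in scaling 5 and 29. Blood cell markers summed to 1.70 to 2.54 FPKM with THZ1 and 0.670 to 1.22 in C312S DMSO, and their part was not tested. NDUFA12 had 384, 369 and 384 FPKM in C312S DMSO and 599, 583 and 702 with THZ1, and rose by 0.72 (SE 0.075). COX6C rose by 0.64, NDUFB2 by 0.55 and ATP5B by 0.44, the last not called with spike-in scaling (0.22). NDUFB1 had 391, 332 and 345 FPKM and 176, 172 and 206 with THZ1, and fell by 0.94 (SE 0.095). NDUFB5 had 127, 132 and 131 with THZ1 and fell by 0.91 (SE 0.060, limma adjusted p = 2.69e-14), and NDUFV3 fell by 0.59.

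The difference of the THZ1 effects between lines was tested directly. It was below 0 for 46 of 78 members (59%, against 19.8% of all tested genes) and above 0 for 2 (2.56%, against 22.4%), with a median of -0.24, where spike-in scaling gave 0 and 77 with a median of 1.93. The largest were NDUFB5 (-0.75, SE 0.084, limma adjusted p = 2.05e-08), NDUFB10 (-0.61, SE 0.098) and NDUFB1 (-0.56, SE 0.13), all accessory subunits of the membrane arm, with 1.43, 1.59 and 1.62 under spike-in scaling. NDUFB10 had 195, 183 and 172 FPKM in WT DMSO and 224, 248 and 220 with THZ1, but 233, 250 and 250 and then 190, 190 and 225 in C312S, so its groups moved in opposite directions. ATP5B also differed (-0.44, SE 0.055), with 1.76 under spike-in scaling. The difference was above 0 for ATP5G2 (0.37, SE 0.077, adjusted p = 0.000251) and NDUFS7 (0.44, adjusted p = 0.0175), the latter lost without WT DMSO replicate 2, WT THZ1 replicate 3 or C312S DMSO replicate 1 (0.35 to 0.38). NDUFA12 did not pass (-0.18, adjusted p = 0.184).

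**Figure D4:**
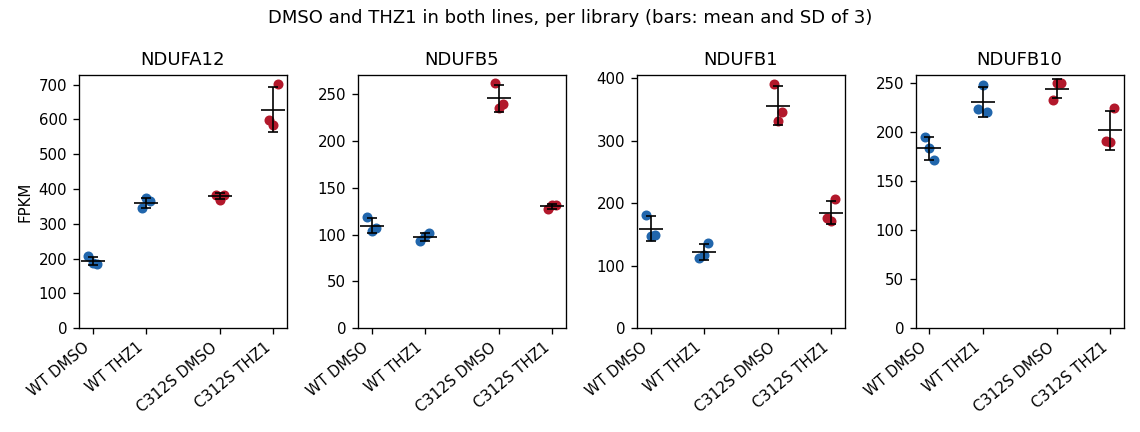
FPKM of NDUFA12, NDUFB5, NDUFB1 and NDUFB10 in each library of DMSO and THZ1 in both lines, with mean and SD of 3. NDUFA12 is higher with THZ1 in both lines, and NDUFB5 drops from 236 to 262 to 127 to 132 in C312S.

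Adding YKL 2 µM to THZ531 raised most members less in C312S than in WT on the deposited scale, a difference that spike-in scaling did not show. In C312S 44 members were higher (56.4%, against 18.5% of all tested genes) and 2 lower (2.56%, against 16.3%), with a median of 0.19, where spike-in scaling gave 0 and 78 and GC and length correction 30 and 11. COX5B was 0.41, NDUFA11 0.41 and NDUFA3 0.40 higher, with -0.37, -0.37 and -0.38 under spike-in scaling, and NDUFA5 (-0.34) was among the lower ones. The difference C312S minus WT was below 0 for 55 members (70.5%, against 27.2%) and above 0 for 3 (3.85%, against 25.9%), with a median of -0.40, where spike-in scaling gave 5 and 10 with a median of 0.02.

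NDUFB5 had 98.1, 106 and 105 FPKM with THZ531 and 107, 107 and 116 with the combination in C312S (0.10, not called), against the 1.24 in WT, a difference of -1.14 (SE 0.084, limma adjusted p = 1.64e-12). The difference was -0.92 (SE 0.13) for NDUFB1 and -0.83 (SE 0.098) for the peripheral stalk gene ATP5J. ATP5G2 went from 285, 290 and 276 FPKM to 264, 279 and 267 in C312S (-0.07, adjusted p = 0.338) and from 257, 241 and 256 to 186, 178 and 171 in WT, a difference of 0.42 (SE 0.077, adjusted p = 3.59e-05). ATP5SL, which is not a synthase subunit, had 0.42 (SE 0.082), and NDUFS7 0.38 (adjusted p = 0.0316), lost without WT THZ531 replicate 1, WT combination 2 µM replicate 2, C312S THZ531 replicate 1 or 3, or C312S combination 2 µM replicate 2 (0.27 to 0.37), or after GC and length correction (0.12).

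**Figure D5:**
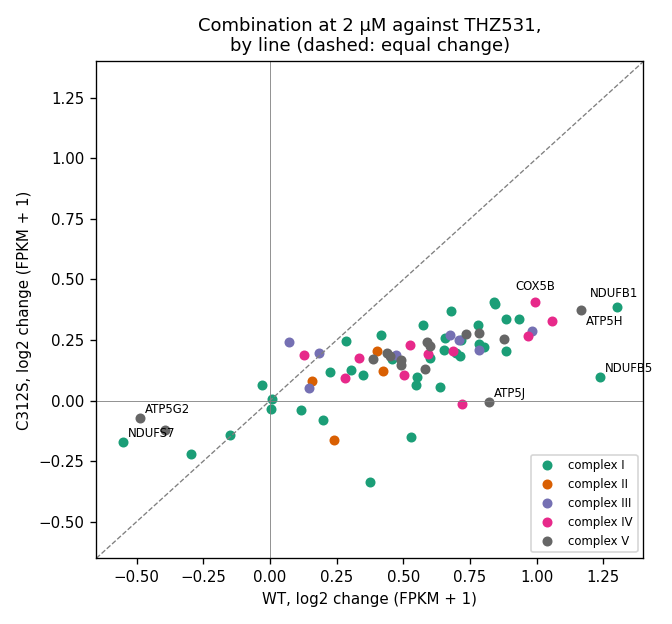
Log2 change (FPKM + 1, deposited scale) of each member with the combination at 2 µM against THZ531, WT on the x axis and C312S on the y axis, coloured by complex, with a dashed line of equal change. Most members lie right of the dashed line, NDUFB5 at 1.24 and 0.10, while ATP5G2 (-0.49 and -0.07) and NDUFS7 lie left of it. With spike-in scaling the median of the difference is 0.02.

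The members had transcripts of common base composition but short length: the median GC content was 47.7%, against 48.3% of all tested genes, and the median length 1432 bases against 3552. The symbols outside the complexes were low or mixed. ATP5EP2 lay between 0 and 3.73 FPKM, and its parent gene is nearly identical in sequence, so its values are uncertain. ATP5SL had 38.1, 36.9 and 35.6 FPKM in WT DMSO and 23.2, 21.7 and 20.5 with the combination at 2 µM, and fell by 0.73. ATP5S had 4.32 to 4.82 FPKM in WT DMSO and 6.12 to 6.95 with that combination.

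Genes next to the respiratory chain did not all follow it in WT. Among 46 assembly factors, which build the complexes without staying in them, 22 rose (47.8%, against 31.3% of all tested genes) and 13 fell (28.3%, against 31.7%) with YKL 500 nM, with a median of 0.13. With THZ1 17 rose (37%, against 34%) and 22 fell (47.8%, against 34.8%), with a median of -0.11, so the share risen was near the background. With the combination at 2 µM 33 rose (71.7%, against 38.9%) and 8 fell (17.4%, against 38.1%), with a median of 0.47. Spike-in scaling gave 1 and 38, 0 and 46, and 2 and 37. TTC19, an assembly factor of complex III, had 26.6 ± 0.908 FPKM (SD, n = 3) in DMSO and 60.1 ± 2.85 with the combination at 2 µM, and rose by 1.15 (SE 0.051), where spike-in scaling gave 0.051, not called. NDUFAF3, which assembles complex I, had 46.8 ± 4.81 FPKM in DMSO and 16.9 ± 1.18 with THZ531, and fell by 1.42 (SE 0.089). COA3, which assembles complex IV, fell by 0.82 with THZ531 and by 1.44 with THZ1, to 21.6 ± 0.615 from 60.5 ± 0.998 FPKM.

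Of 8 subunits, carriers and paralogs outside the symbol rule, 8 rose (100%, against 38.9%) and 0 fell (against 38.1%) with the combination at 2 µM (median 0.67, and 1 and 7 with spike-in scaling), among them the synthase inhibitor ATPIF1 (0.71, and -0.41 with spike-in scaling). Among 15 regulators of respiratory genes and mitochondrial transcription, 1 rose (6.67%, against 31.8% of all tested genes) and 10 fell (66.7%, against 33.5%) with YKL 2 µM, with a median of -0.31, where equal total FPKM gave 5 and 5. With the combination at 2 µM 5 rose (33.3%, against 38.9%) and 9 fell (60%, against 38.1%), with a median of -0.38. The coactivator PPRC1 had 25.2 ± 1.02 FPKM in DMSO, 13.9 ± 0.459 with YKL 2 µM and 9.55 ± 0.376 with the combination at 2 µM, falls of 0.81 and 1.31. NRF1 fell by 0.82 with YKL 2 µM, from 9.57 ± 0.224 to 4.98 ± 0.308 FPKM.

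In the tricarboxylic acid cycle and pyruvate dehydrogenase, 5 of 17 genes rose (29.4%, against 31.8%) and 5 fell (29.4%, against 33.5%) with YKL 2 µM, with a median of -0.03, which is near the background. With THZ1 11 rose (64.7%, against 34%) and 3 fell (17.6%, against 34.8%), with a median of 0.41. Spike-in scaling gave 1 and 5, and 0 and 17. Citrate synthase (CS) had 184 ± 2.004 FPKM in DMSO, 114 ± 1.66 with YKL 500 nM, 104.5 ± 0.707 with YKL 2 µM and 107 ± 3.21 with the combination at 2 µM, falls of 0.68, 0.81 and 0.78 (SE 0.028). PDHA1 rose by 0.56 with THZ1, with -1.84 under spike-in scaling. Among 18 genes of glycolysis and lactate, 1 rose (5.56%, against 31.8%) and 13 fell (72.2%, against 33.5%) with YKL 2 µM, with a median of -0.18, where equal total FPKM gave 9 and 6. With THZ1 12 rose (66.7%, against 34%) and 5 fell (27.8%, against 34.8%), with a median of 0.34, where spike-in scaling gave 0 and 18. The hexokinase HK2 fell by 0.88 with YKL 2 µM (SE 0.050), and GAPDH rose by 0.88 with THZ1, from 3112 ± 130 to 5742 ± 46.6 FPKM, with -1.55 under spike-in scaling.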

How the data were processed

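The authors deposited FPKM per gene, from poly(A)-selected, stranded libraries. Tools and build per the submitters' processing notes are hg19, Cuffnorm, Cufflinks 2.2.1 and HISAT2 2.0.4, with no order or settings. Counts were not used, so no count model was run and the depth is unknown. Groups came from the treatment and cell line labels.

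Differences were fitted in R 4.3.3 (limma 3.58.1, and the package data.table at version 1.17.8) on log2(FPKM + 1), which understates changes of low genes, as 14 group means over 42 libraries with a trend on expression, for 12816 genes reaching 1 FPKM or more in 3 libraries or more. P-values were Benjamini-Hochberg adjusted within each comparison over all of them. Alternatives were a pseudocount of 0.1, no filter or at least 5 FPKM, 3 scalings (equal total FPKM, median ratio, spike-in), only the groups compared, a replicate block, GC and length trends removed (12552 genes, 97.9%), and each library left out. The fit was tested on simulated data. Python 3.11.15 with pandas 2.3.3, numpy 2.4.6 and matplotlib 3.10.9 made tables and plots.

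Members and gene lists were chosen with earlier results of these data known. Genes named are, per complex and WT treatment, the largest called rise and fall; for other comparisons the 3 largest each way, without the pseudogene; catalytic or defining subunits anywhere; and up to 2 genes per list and WT treatment with the smallest adjusted p. Genes shown beyond these (NDUFA3 with THZ531, SDHD between doses, ATP5S, ATP5EP2, and NDUFB1 in the departure from the sum) were chosen after their values were seen, as were further treatments of genes the rule names. The sources used here do not give how the authors shared reads between near-identical copies. Values of 1 of the members are not reported singly here.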

Additional observations from a re-analysis of the deposited data

Results flagged for a closer look

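A direct test of the difference between lines passed for the following. The THZ1 effect differed between C312S and WT for 48 of 78 members. It was below 0 for 46 (59%, against 19.8% of all tested genes) and above 0 for 2 (2.56%, against 22.4%). Among them were NDUFS7 (0.44), ATP5G2 (0.37), NDUFB5 (-0.75), NDUFB10 (-0.61) and NDUFB1 (-0.56), as log2 differences C312S minus WT. Spike-in scaling turned NDUFB5, NDUFB10 and NDUFB1 to above 0, and the NDUFS7 call was lost without some single libraries. The effect of adding YKL 2 µM to THZ531 differed for 58 members. It was below 0 for 55 (70.5%, against 27.2%) and above 0 for 3 (3.85%, against 25.9%). Among them were ATP5G2 (0.42), ATP5SL (0.42), NDUFS7 (0.38), NDUFB5 (-1.14), NDUFB1 (-0.92) and ATP5J (-0.83). With spike-in scaling far fewer members were called for the addition. Its NDUFS7 call was lost without some single libraries or after GC and length correction. C312S DMSO and THZ1 libraries had higher total FPKM than the rest, and its part in these differences was not tested.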

How the results depend on the processing

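Totals of called members below sum both directions and do not show turns: with spike-in scaling risen and fallen members went from 52 and 10 to 0 and 77 for WT THZ1, from 62 and 9 to 0 and 71 for the WT combination at 2 µM, and from 68 and 5 to 0 and 75 for C312S against WT. The cause was not tested where a value moved. Totals outside 1.5 times of the reported ones were 74 for WT YKL 500 nM, 15 for WT THZ531, 77 for the line difference of THZ1, 78 for the YKL doses, 78 for the addition in C312S and 15 for the line difference of the addition with spike-in scaling. Equal total FPKM gave 55 for WT THZ531 and 6 for the departure at 500 nM. Between the YKL doses (4 called) no filter gave 0, only the groups compared 2 and the replicate block 1. The departure at 500 nM (11 called) had 3 with only the groups compared. Leaving out 1 library gave 0 to 2 for the doses and 4 to 12 for that departure.

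Spike-in scaling turned the member median in WT with THZ1 (-2.09) and the combinations at 500 nM (-0.23) and 2 µM (-0.60). In C312S it turned it with YKL 500 nM (0.37), YKL 2 µM (0.54), THZ531 (0.87), THZ1 (-0.16), and the combinations (0.49 and 0.29). It also turned C312S against WT (-0.63), the line difference of THZ1 (1.93), the doses (0.48), the addition in WT (-0.64) and C312S (-0.59), its line difference (0.015), and the departure at 2 µM (-0.47). Medians also depended on other corrections: more than the spread between libraries, equal total FPKM moved 17 of 20, GC and length trends removed 14 and median ratio scaling 5. The C312S THZ1 median was -0.041 with equal total FPKM and -0.00576 without C312S THZ1 replicate 3. Medians near 0 changed sign for WT YKL 500 nM (-0.61 with spike-in scaling, -0.043 with GC and length trends removed), WT YKL 2 µM (0.26 with equal total FPKM) and WT THZ531 (0.060 with equal total FPKM, 0.057 with spike-in scaling).

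Of 129 named gene results, spike-in scaling turned 37 and ended the call of 20 others, the latter given beside the results where named. It turned these genes. With WT YKL 500 nM: NDUFA12 -0.24, SDHA -0.24, UQCRFS1 -0.40, COX7A2 -0.35, ATP5H -0.26 and ATP5B -0.38. With WT THZ1: NDUFA12 -1.52, SDHA -2.02, UQCRH -1.99, COX6C -1.41, ATP5B -1.54, ATP5A1 -2.00, NDUFV1 -1.79, GAPDH -1.55 and PDHA1 -1.84. With the WT combination at 2 µM: SDHB -0.49, UQCRH -0.29, ATP5H -0.084, ATP5G3 -0.66 and ATPIF1 -0.41, and against THZ531 ATP5H -0.025 and ATP5G3 -0.69. For C312S against WT: COX7B -0.054, NDUFA4 -0.20, NDUFB1 -0.28, ATP5G1 -0.60, ATP5G3 -0.49 and ATP5G2 -1.18. For the line difference of THZ1: NDUFB5 1.43, NDUFB10 1.59, NDUFB1 1.62 and ATP5B 1.76. For the addition in C312S: COX5B -0.37, NDUFA11 -0.37 and NDUFA3 -0.38. ATP5G2 had 0.89 and 0.88 with YKL 500 nM and 2 µM in C312S.

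Equal total FPKM turned SDHC (0.060) and ATP5G3 (0.18) with WT YKL 2 µM, ATP5G1 with WT YKL (0.047 at 500 nM, 0.036 at 2 µM), and ATP5G2 in C312S against WT (-0.25) and with C312S YKL (0.23 and 0.10). GC and length trends removed, with or without the replicate block, turned NDUFS7 (0.19) and ATP5G2 (-0.092) in C312S against WT, NDUFV1 with the WT combination at 2 µM (0.16) and ATP5G2 with C312S YKL 500 nM (0.037). Replicate numbers did not pair the libraries (median correlation of deviations 0.02 over 273 pairs of the same number, from -0.21 to 0.25), and the replicate block kept 129 of 129 named gene results. Read depth is unknown, which limits low values such as ATP5EP2.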
